A study of Mus musculus with 8 samples.

Results

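GW4064, a synthetic agonist of the farnesoid X receptor (FXR, encoded by Nr1h4), was given to mice whose hepatocytes lack FXR, and nascent transcription in the liver was read 1 h later by global run-on sequencing (GRO-seq). Drug-metabolism genes had some of the largest ratios of GW4064 to vehicle in these livers: Cyp2b10 was 6.76-fold higher with GW4064, Cyp2c29 6.25-fold and Cyp3a11 3.93-fold. Among single genes of glucose and lipid metabolism, Ppp1r3b was 2.92-fold higher and Scd1 2.01-fold. The 22 known FXR-induced genes kept had ratios of either sign with a median of -0.02 on the log2 scale, and Abcb11 among them had 0.36, against 3.57 in livers with FXR. Of the 19 with at least 20 reads in a library, 3 (Nr0b2, Osgin1 and Thrsp) were at least 2-fold higher and 1 lower. Among all rows with as many reads, 0.770% were higher and 0.539% lower.

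The comparison rests on 2 of the 8 libraries of the series, 1 from FXR KO liver after vehicle and 1 from FXR KO liver after GW4064. The table has 25124 gene rows, of which 9683 were kept: rows of at least 300 bases with a mean of at least 0.5 RPKM (reads scaled to the length of the row and the total of the library) over the 4 GRO-seq libraries. All mice were C57BL/6 males fasted overnight, and GW4064 was given once at 30 mg/kg for 1 h. The FXR KO livers came from Fxr-LKO mice, in which Cre under the Albumin promoter deletes floxed Fxr, so only hepatocytes and other cells that use this promoter lose it. The GRO-seq livers labelled WT came from Fxr-Flox mice, which carry the floxed allele without Cre, and gave 1 library after vehicle and 1 after GW4064. Vehicle is named DMSO in the sample titles and corn oil in the methods. Ribo-depleted RNA-seq of wild-type livers, with 2 libraries a treatment, completed the series. The labels' RNA text names pools of 2 mice in each group. The GRO-seq samples carry the same text, so whether a GRO-seq library pools mice is uncertain, and the table has 1 column for each GRO-seq group although the study describes more than 1 animal in each. With 1 GRO-seq library a group there was no replicate check, no test could be made, and differences between animals, days or libraries cannot be told apart from the effect of GW4064.

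FXR is a nuclear receptor that binds bile acids, pairs with the retinoid X receptor and, in the liver, raises bile salt export and lowers bile acid synthesis, partly through the repressor SHP (Nr0b2). The liver's 2 main receptors for foreign compounds are the constitutive androstane receptor (CAR, Nr1i3) and the pregnane X receptor (PXR, Nr1i2), which induce cytochromes P450 of the Cyp2b, Cyp2c and Cyp3a families, transferases and transporters. GRO-seq labels RNA as engaged polymerases extend it in isolated nuclei, so it reads transcription over the whole gene rather than the store of mature mRNA. A liver library mixes cell types, and fewer cells of a type cannot be told apart from less transcription per cell.

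The FXR KO libraries were the shallowest of the series. Whole reads rebuilt from the RPKM values gave totals of 5141633 reads for FXR KO vehicle and 5069390 for FXR KO GW4064, against 14173680 and 10593285 in the WT pair. One read in a row of 10 kb was worth about 0.0197 RPKM in the FXR KO GW4064 library. Throughout, a ratio is log2 of GW4064 over vehicle with 0.1 RPKM added to both. A counting interval is the exact 95% interval of the ratio of the reads themselves, with nothing added, so for rows of few reads the ratio can fall outside it. It covers counting error only, without the differences between mice or preparations. The ribosomal precursor row Rn45s took 1.32% and 1.34% of reads in the FXR KO pair and 0.632% and 0.821% in the WT pair.

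The targeted gene itself could not check the labels, because its row spans all of Nr1h4 (mm10 chromosome 10, 89454234 to 89506658, minus strand) and deletion of a floxed part need not lower reads over the rest. Nr1h4 gave 16.7 RPKM in FXR KO vehicle and 20.6 in FXR KO GW4064, a ratio of 0.30 (0.25 to 0.36). It gave 15.1 RPKM in WT vehicle and 4.23 in WT GW4064, a ratio of -1.81. The level of Nr1h4 in the library labelled FXR KO vehicle was thus close to that of WT vehicle. Transcription of SHP differed more: Nr0b2 had 2 reads in FXR KO vehicle and 171 in WT vehicle, or 0.118 and 3.65 RPKM.

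Hepatocyte markers filled the FXR KO libraries. The 12 markers summed to 1245 RPKM after vehicle and 1125 after GW4064, and none of the 12 was 2-fold apart between them. Sinusoidal endothelial markers summed to 26.3 and 23.9 RPKM, Kupffer cell markers to 14.7 and 12.6, stellate cell markers to 5.80 and 5.28, and cholangiocyte markers to 5.72 and 5.72. Blood cell markers summed to 12.1 and 16.4 RPKM, and the 4 of them that were kept were haemoglobin and neutrophil genes. None of the members kept in these lists was 2-fold apart in FXR KO.

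Of 9086 rows with at least 20 reads in 1 of the 2 FXR KO libraries, 70 were at least 2-fold higher with GW4064 (0.770%) and 49 at least 2-fold lower (0.539%). In the WT pair 257 of 9564 such rows were higher (2.69%) and 161 lower (1.68%). The median ratio of the rows kept was -0.03 in FXR KO and -0.10 in WT, and every ratio is to be read against these medians. Of the FXR KO rows, 27 of the 70 and 14 of the 49 had a counting interval that lay wholly beyond 2-fold. Most were thinly read: 4 of the 70 and 2 of the 49 had at least 1000 reads in both libraries.

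**Figure D1:**
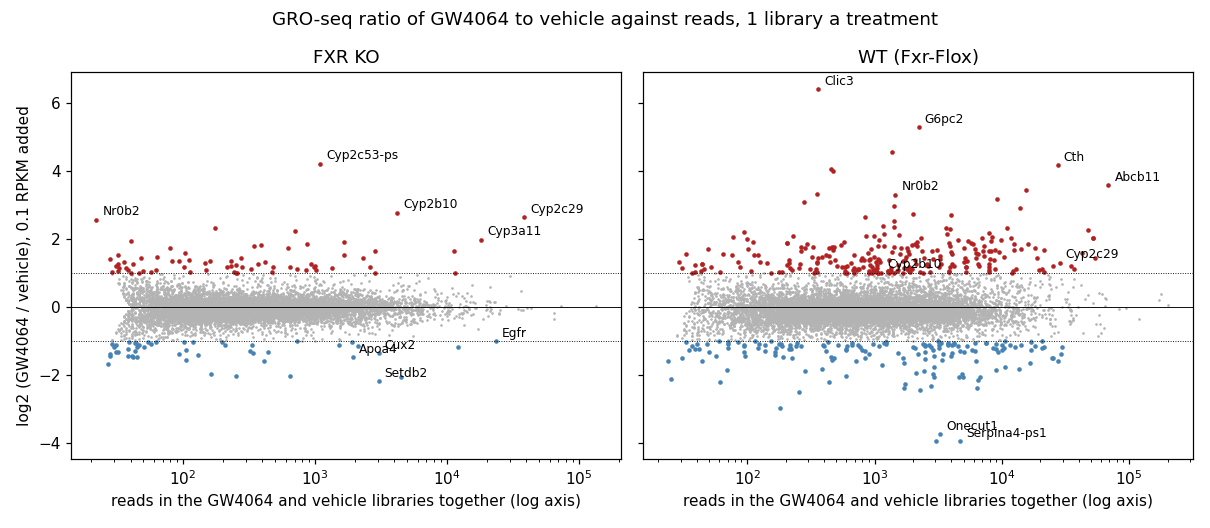
Ratio of GW4064 to vehicle in GRO-seq (vertical axis, log2 with 0.1 RPKM added) against the reads of the row in the pair together (horizontal log axis), for FXR KO (left) and WT (right). Each point is a row that reached 20 reads in either library, dotted lines mark 2-fold, red points are at least 2-fold higher and blue points at least 2-fold lower. In FXR KO Cyp2b10, Cyp2c29 and Cyp3a11 stand out at high read numbers, and in WT Abcb11 and Cth do.

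The width of the FXR KO ratios followed counting error among thin rows and exceeded it among deep ones. In rows with 20 to 50 reads in the pair the interquartile range of the FXR KO ratio was 0.669, and counting alone gives 0.669. In rows with 1000 to 5000 reads it was 0.253, where counting alone gives 0.0948. The WT pair was wider in that class, at 0.389 against 0.0898 from counting. Row length had little bearing on the FXR KO ratio, whose median was -0.01 in rows of 300 to 3000 bases and -0.04 in rows of 100000 to 300000 bases. The same medians in WT were 0.00 and -0.19.

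The xenobiotic response had the highest median FXR KO ratio of the 27 gene lists. Of 30 genes listed as CAR and PXR targets, 22 were kept; 6 were at least 2-fold higher with GW4064, none was 2-fold lower, and 20 had a ratio above 0. Over all rows with enough reads 0.770% were higher and 0.539% lower, and 45.3% of the rows kept had a ratio above 0. Their median ratio was 0.67 in FXR KO, against -0.03 over all rows kept. In WT the list had 7 members at least 2-fold higher, against 2.69% of all rows, none lower, and a median of 0.33. The list and the genes named from it were chosen with earlier results of these data known.

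Cyp2b10, the classical CAR target, which oxidises drugs such as barbiturates, had 534 reads in FXR KO vehicle and 3645 in FXR KO GW4064. That was 3.58 and 24.8 RPKM, a ratio of 2.76 (counting interval 2.66 to 2.93). In WT it had 1.06 and 2.24 RPKM, a ratio of 1.01. Its level was highest in FXR KO GW4064, and even FXR KO vehicle lay above both WT libraries. RNA-seq of wild-type liver gave 1.09 and 1.01 RPKM after vehicle and 2.44 and 1.22 after GW4064.

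Cyp2c29, a cytochrome P450 of mouse liver, was the deepest of these genes. It had 24.0 RPKM in FXR KO vehicle and 150.7 in FXR KO GW4064, from 5388 and 33332 reads, a ratio of 2.64 (2.61 to 2.69). In WT it had 16.1 and 39.9 RPKM, a ratio of 1.30. The FXR KO GW4064 library took Cyp2c29 well above the other 3 GRO-seq libraries, which ranged from 16.1 to 39.9 RPKM.

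Cyp3a11, the principal mouse Cyp3a enzyme and a PXR target, had 28.7 RPKM in FXR KO vehicle and 113.2 in FXR KO GW4064, a ratio of 1.98 (1.93 to 2.03). In WT it had 14.4 and 48.3 RPKM, a ratio of 1.74. The 2 genotypes thus had similar ratios from different starting levels. Cyp3a59 had a ratio of 1.92 in FXR KO and 1.92 in WT, and Cyp3a25, with the second most reads of the list, 0.90 and 1.43. Members of the Cyp3a and Cyp2c families are alike in sequence, so reads may be shared among copies and the split between neighbours is uncertain.

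Other enzymes of the list followed at lower ratios. Gstm3, a glutathione transferase, had 17 and 62 reads in FXR KO, a ratio of 1.73 (1.09 to 2.75), and 2.08 in WT. The carboxylesterase Ces2a had a ratio of 1.17 in FXR KO and 0.46 in WT. Alas1, which makes the first committed intermediate of the haem that P450 enzymes need, had 53.1 and 106.7 RPKM in FXR KO, a ratio of 1.01 (0.95 to 1.06), and 0.66 in WT. The receptors themselves differed: Nr1i2 (PXR) had a ratio of 0.95 in FXR KO and 1.68 in WT, and Nr1i3 (CAR) 0.25 and -0.25. Por, the reductase that passes electrons to P450 enzymes, had 0.37 and 0.87. The lowest members in FXR KO were Gstm2 at -0.07 and Sult5a1 at -0.21.

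**Figure D2:**
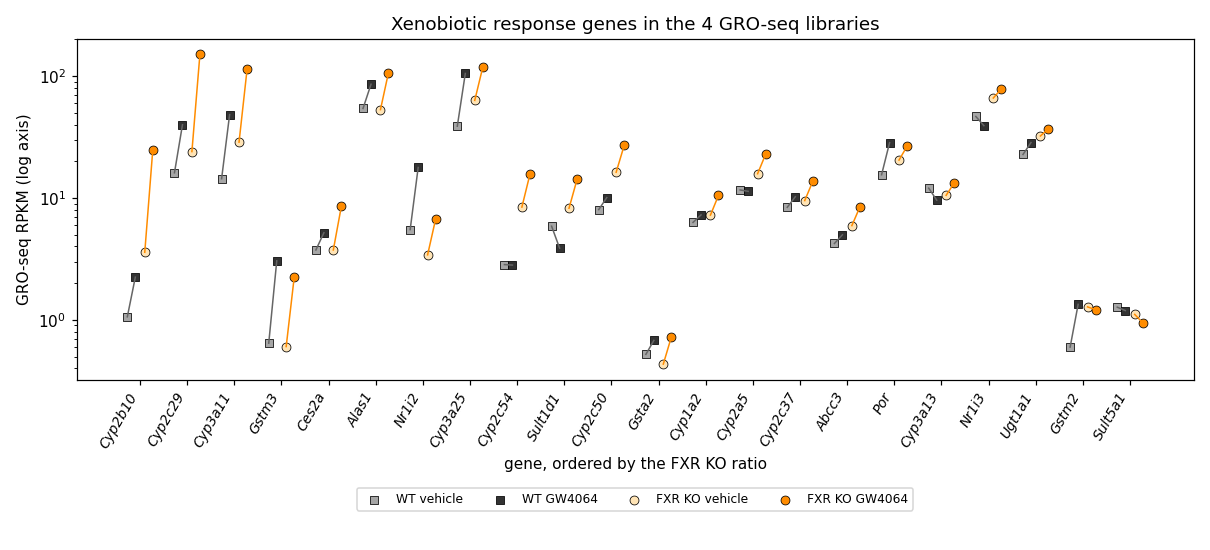
GRO-seq level (RPKM, log axis) of the 22 xenobiotic response genes kept, ordered by their FXR KO ratio, in the 4 libraries: grey squares for WT vehicle, black squares for WT GW4064, pale circles for FXR KO vehicle and orange circles for FXR KO GW4064, 1 library each. Lines join vehicle to GW4064 within a genotype, and the steepest FXR KO lines are those of Cyp2b10, Cyp2c29 and Cyp3a11.

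The highest FXR KO ratio of all belonged to a pseudogene beside Cyp2c29. Cyp2c53-ps (chromosome 19, 39229254 to 39274737, plus strand) had 36 reads in FXR KO vehicle and 1060 in FXR KO GW4064, or 0.154 and 4.60 RPKM, a ratio of 4.21 (counting interval 4.42 to 5.42). In WT it had 74 and 60 reads, a ratio of 0.07. It ends upstream of Cyp2c29, which starts at 39287085 on the same strand. Cyp2c55, further upstream and below the RPKM filter, had 5 and 127 reads in FXR KO and 25 and 29 in WT. Farther along the cluster the ratios were smaller and of either sign: Cyp2c38 had -0.65 in FXR KO, Cyp2c39 -0.07, Cyp2c68 -0.31 and Cyp2c37 0.52. Of the 12 rows from Cyp2c55 to Cyp2c37 only Cyp2c55, Cyp2c53-ps and Cyp2c29 were at least 2-fold higher. Cyp2c65 and Cyp2c66 lie between Cyp2c55 and Cyp2c53-ps. Cyp2c65 had 1 and 4 reads in FXR KO, too few to show a difference. Cyp2c66 had 16 and 11 reads, with a counting interval of -1.77 to 0.68 that lay below a 2-fold rise. These 12 rows stop at Cyp2c37. Beyond it on chromosome 19, Cyp2c70 was also at least 2-fold higher in FXR KO, with a ratio of 1.09.

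A carboxylesterase cluster on chromosome 8 showed a similar unevenness. Ces1d, a lipid and drug hydrolase, had 16.9 RPKM in FXR KO vehicle and 53.5 in FXR KO GW4064, a ratio of 1.65 (1.60 to 1.72), whereas its WT ratio was -0.81. Its neighbour Ces1e had a ratio of 1.13 in FXR KO and -0.24 in WT. Ces1b, Ces1c and Ces1f had -0.01, 0.38 and 0.50 in FXR KO. The Ces1 genes are near copies of each other, and reads between them may not be split correctly.

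Promoter sequences of 2 genes are shown, one with a ratio far lower in FXR KO than in WT and one with a high ratio in both: Abcb11, the bile salt export pump, had ratios of 0.36 in FXR KO and 3.57 in WT, and Cyp3a11 had 1.98 and 1.74. Each line gives the 250 bases before the RefSeq start (GRCm38.p6, the mm10 assembly), 5′ to 3′ on the gene's strand. In Abcb11 (chr2:69342617-69342866, minus strand) the capitals mark the closest match to IR1, 2 copies of AGGTCA facing each other with 1 base between, which is the classical FXR element. In Cyp3a11 (chr5:145879855-145880104, minus strand) they mark the closest match to DR4, 2 copies of AGGTCA in one direction with 4 bases between, an arrangement that CAR and PXR can bind.
Abcb11: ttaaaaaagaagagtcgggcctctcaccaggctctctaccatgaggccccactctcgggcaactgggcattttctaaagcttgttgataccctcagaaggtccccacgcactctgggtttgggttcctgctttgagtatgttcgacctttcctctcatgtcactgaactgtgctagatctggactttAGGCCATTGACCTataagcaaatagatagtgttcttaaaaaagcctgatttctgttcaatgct
Cyp3a11: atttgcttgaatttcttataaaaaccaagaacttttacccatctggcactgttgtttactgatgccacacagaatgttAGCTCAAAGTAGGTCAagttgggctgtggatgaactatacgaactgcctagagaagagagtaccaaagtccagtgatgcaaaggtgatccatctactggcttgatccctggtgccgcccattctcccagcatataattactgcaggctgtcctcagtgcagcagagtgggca
The IR1 match of Abcb11 has 1 mismatch and ends 51 bases before the start, and the DR4 match of Cyp3a11 has 1 mismatch and ends 157 bases before it. Both searches read the 2 strands from 250 bases before to 50 after the start, and the DR4 search was added after the values were seen. Of 7720 kept genes with a RefSeq promoter, 0.104% held IR1 with at most 1 mismatch and 0.220% held DR4 at the same stringency. Strict IR1 was in 0 of the 52 promoters of genes higher in FXR KO and in 2 of 207 of those higher in WT. Strict DR4 was in 1 of the 52 and 1 of the 207. Abcb11, Cyp3a11 and Steap3 were the only genes of these groups with such a match, so the promoters shown are not typical of the groups. With at most 2 mismatches IR1 was found in 1.26% of all promoters, in 1 of the 52 with a promoter among the 70 higher in FXR KO, and in 6 of 207 among those higher in WT. DR4 at that stringency was found in 2.93% of all promoters, in 2 of the 52 (3.85%) and in 12 of the 207 (5.80%). The E-box CACGTG was found in 12.3% of all promoters and in 9 of those 52. Shares of the cAMP element TGACGTCA, of TGANTCA, of GAANNTTC and of the serum response element among the 52 were 0%, 5.77%, 3.85% and 0%, against 3.74%, 6.26%, 7.10% and 1.54% of all promoters. A match is a run of letters and does not show binding.

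Several single genes at least 2-fold higher in FXR KO belong to glucose, lipid and rhythmic metabolism, and were named for their ratios rather than as a group. Ppp1r3b, which targets protein phosphatase to glycogen, had 7.17 and 21.1 RPKM in FXR KO, a ratio of 1.54 (1.40 to 1.72), and a ratio of 0.16 in WT. Tsku, a secreted protein of the liver, had 12.6 and 40.2 RPKM in FXR KO, a ratio of 1.66, and 0.79 in WT. Noct, a rhythmic phosphatase of NADPH, had a ratio of 1.44 in FXR KO and 1.26 in WT. Pdp2, which reactivates pyruvate dehydrogenase, had 1.44 and 1.23. These last 2 had similar ratios in both genotypes.

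Among 19 kept genes of insulin-driven lipogenesis 3 were at least 2-fold higher in FXR KO, none was lower, 14 had a ratio above 0, and the median was 0.38. The lowest ratio was -0.79. Over all rows with enough reads 0.770% were higher and 0.539% lower, and 45.3% of the rows kept had a ratio above 0. The higher members included Thrsp, with 12 and 36 reads, and Scd1, the stearoyl-CoA desaturase, with 14.1 and 28.4 RPKM and a ratio of 1.01 (0.90 to 1.13). Acaca, an acetyl-CoA carboxylase and the deepest member, had 0.62, and Fads2, a fatty acid desaturase and the next deepest, -0.50. In WT the same list had a median of -0.14, with 3 members higher and 3 lower, against 2.69% and 1.68% of all rows. Of 22 kept genes of glucose and glycogen metabolism 2 were at least 2-fold apart in FXR KO, Ppp1r3b among them. Pck1, of gluconeogenesis and among the deepest members, had a ratio of -0.37.

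Genes that fasting induces were among the lower ones. Igfbp1, an insulin-repressed binding protein of the insulin-like growth factors, had 42.7 RPKM in FXR KO vehicle and 19.9 in FXR KO GW4064, a ratio of -1.10 (-1.26 to -0.94), whereas WT had 13.4 and 27.4, a ratio of 1.02. Apoa4, an apolipoprotein of fat transport, had 106.8 and 38.6 RPKM in FXR KO, a ratio of -1.47 (-1.62 to -1.32), and 8.02 and 27.95 in WT, a ratio of 1.79. For both genes FXR KO vehicle was the highest of the 4 libraries. Fgf21, a hormone of fasting, had 21 and 6 reads, a ratio of -1.66 (-3.39 to -0.43), and Depp1, a FOXO target, 131 and 32 reads, a ratio of -1.98 (-2.62 to -1.45). Depp1 lies inside Rassf4, which had a ratio of -1.11, and the reads were not separated by strand, so the 2 cannot be told apart. The wider list of glucocorticoid and fasting genes did not follow. Of 24 kept, Igfbp1 was the only one 2-fold apart, and the median was 0.02. Among all rows with enough reads 0.539% were at least 2-fold lower.

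The known targets of FXR were then compared between the livers with and without it. Of 8 genes of FXR and its partners, all kept, Nr0b2 alone was 2-fold apart in FXR KO, and the median was 0.13. Rxra, the partner that binds DNA with FXR, had -0.16. Of 24 genes listed as FXR-induced, 22 were kept. In WT 13 of these were at least 2-fold higher with GW4064, against 2.69% of all rows, and the median ratio was 1.198. In FXR KO the median of the 22 was -0.02, close to the -0.03 of all rows. Of the 19 with at least 20 reads there, 3 were higher and 1 lower, against 0.770% and 0.539% of all such rows.

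Abcb11 had 1.204 RPKM in FXR KO vehicle and 1.58 in FXR KO GW4064, a ratio of 0.36 (0.24 to 0.54), and 4.61 and 56.0 RPKM in WT. Clic3, a chloride channel protein, had 6 and 6 reads in FXR KO (counting interval -1.88 to 1.92) and 3 and 357 in WT, ratios of 0.02 and 6.39. G6pc2, a glucose-6-phosphatase, had 5 and 2 reads in FXR KO (-4.69 to 1.31) and 63 and 2151 in WT. Clic3 and G6pc2 passed the RPKM filter through WT GW4064, and their FXR KO reads were too few to exclude a 2-fold rise. Igfbp2, another growth factor binding protein, had ratios of -0.79 and 3.44, Scarb1, the HDL receptor, -0.61 and 1.65, and Abcb4, the phospholipid exporter, -0.45 and 1.22. Atp8b1, a canalicular flippase, had -0.26 and 1.18. Each of these last 4 had a counting interval below 0 in FXR KO and above 0 in WT.

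The 3 FXR-induced genes that remained at least 2-fold higher in FXR KO were Nr0b2, Thrsp and Osgin1. Nr0b2 rests on 2 and 20 reads, or 0.118 and 1.19 RPKM, a ratio of 2.57 with a counting interval of 1.30 to 6.48. Its WT levels were 3.65 and 36.6 RPKM, so that the FXR KO GW4064 level lay below even WT vehicle. Gpatch3 and Gpn2, which lie beside Nr0b2, had ratios of 0.32 and 0.29 in FXR KO and 1.54 and 1.38 in WT. Osgin1, an oxidative stress-induced growth inhibitor, was better read, with 303 and 703 reads, or 6.47 and 15.2 RPKM, a ratio of 1.22 (1.04 to 1.43), against 9.06 and 82.0 RPKM in WT. Thrsp, a lipogenic regulator, had 0.505 and 1.54 RPKM in FXR KO and 1.05 and 26.7 in WT. Cyp26a1, the retinoic acid hydroxylase, had 4 and 8 reads in FXR KO, too few to show a difference, and 29 and 422 in WT.

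**Figure D3:**
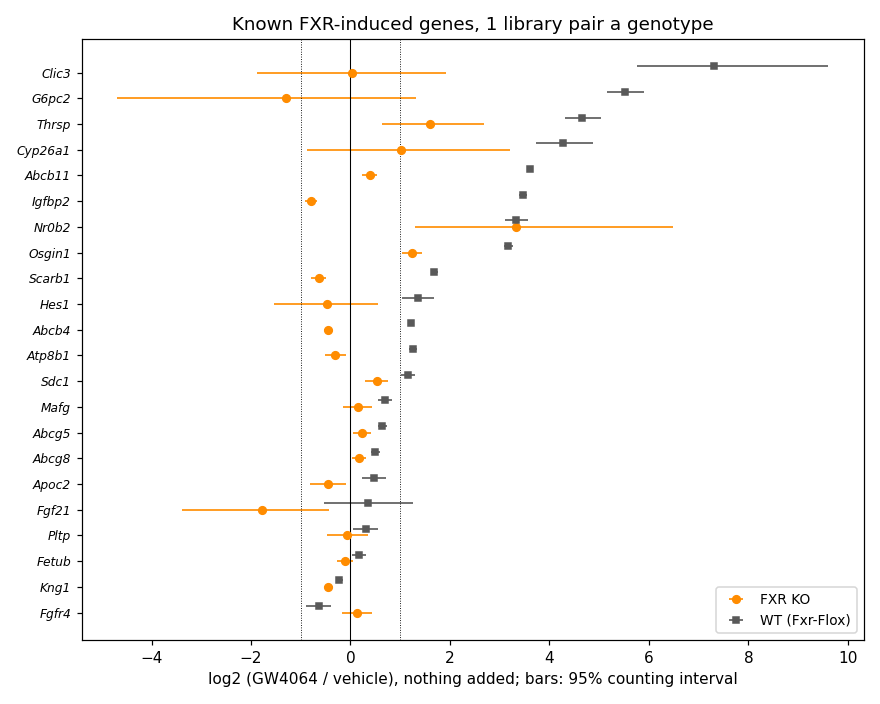
Ratio of GW4064 to vehicle (horizontal axis, log2 of RPKM with nothing added) of the 22 known FXR-induced genes kept, ordered by their WT ratio. Orange circles are FXR KO and grey squares WT, 1 library pair each, with exact 95% counting intervals as bars and dotted lines at 2-fold. Wide orange bars belong to genes with few reads, such as Nr0b2 with 2 and 20, and Abcb11, Igfbp2, Scarb1 and Abcb4 have narrow intervals that lie apart in the 2 genotypes.

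Genes beside enhancers whose RNA GW4064 induces gave a similar picture. Of 15 listed, 11 were kept, with a median of 1.66 in WT, and 10 of these were at least 2-fold higher there, against 2.69% of all rows. In FXR KO the median was 0.24, and 10 had at least 20 reads. Of the 10, none was lower and 3 were higher, against 0.770% of all such rows. Besides Nr0b2 these were Mfsd2a, a lysolipid transporter, with 42 and 117 reads, 2.55-fold apart, and Fam47e, with 77 and 167 reads and a ratio of 1.04 (0.74 to 1.55). Mfsd2a had 0.570 and 1.61 RPKM in FXR KO and 12.3 and 48.7 in WT. Aldh1l1, a folate enzyme and the deepest of the list, had 0.24 and 1.12, and Hes1, a Notch-linked repressor, -0.43 and 1.33. Neither kept neighbour of the Fincor enhancer was 2-fold apart in FXR KO, with 0.18 for Pcsk5 and -0.25 for Rfk. In WT they were not 2-fold apart either, with -0.23 for Pcsk5 and 0.20 for Rfk.

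Repression by FXR was also compared. Cyp7a1, whose enzyme sets the pace of bile acid production, had 49.8 RPKM in FXR KO vehicle and 55.4 in FXR KO GW4064, a ratio of 0.15 (0.08 to 0.23), and 14.4 and 3.83 RPKM in WT, a ratio of -1.88. Of 16 kept genes of bile acid synthesis, Cyp2c70, which makes muricholic acids in mice, was at least 2-fold higher in FXR KO (1.09) and Cyp7b1, the oxysterol hydroxylase, at least 2-fold lower. Over all rows with enough reads 0.770% were higher and 0.539% lower. Cyp7b1 was lower in both genotypes, with 9.56 and 4.19 RPKM in FXR KO, a ratio of -1.17 (-1.25 to -1.14), and -1.58 in WT. Cyp8b1, the sterol 12-hydroxylase, had -0.51 and 0.59. None of 10 transporters of bile acids and anions was 2-fold apart in FXR KO, and Abcc2, a conjugate exporter, had the most reads and a ratio of 0.60.

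Genes picked from WT GRO-seq were then read in FXR KO. The 257 rows higher in WT had a median FXR KO ratio of 0.03, with quartiles at -0.24 and 0.43. Of these, 227 had at least 20 reads in FXR KO, and 21 of them were at least 2-fold higher there and 2 lower. Over all such rows 0.770% were higher and 0.539% lower. The 161 rows lower in WT had a median of -0.04, with 5 higher and 5 lower in FXR KO. The WT increases that were largest by their counting interval varied in FXR KO, from -0.79 for Igfbp2 to 2.57 for Nr0b2, on 2 and 20 reads. Nr0b2, Thrsp, Gadd45b, Osgin1 and Fam47e among them were at least 2-fold higher in FXR KO, with at least 20 reads in a library. Cth, the hydrogen sulfide-forming enzyme of cysteine synthesis, had 9.61 and 8.72 RPKM in FXR KO, a ratio of -0.14. In WT it had 4.29 and 78.4, a ratio of 4.16. Paxx, a DNA repair factor, had 7 and 15 reads in FXR KO and 34 and 434 in WT. Gadd45b, a stress-response gene, had 3.96 and 9.80 RPKM in FXR KO, a ratio of 1.29 (0.78 to 1.86), and 3.32 in WT. Among decreases, Keg1 had a ratio of 0.43 in FXR KO and -3.92 in WT, and Akr1c20 0.64 and -2.25. Clec2d, Plcxd2, Ces3b, Smad9, Socs2 and Fam13a lay between -0.81 and 0.07 in FXR KO and between -2.49 and -2.06 in WT.

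RNA-seq gave a second, separate choice of genes. Both GW4064 libraries were at least 2-fold above both vehicle libraries in 83 of 9683 rows (0.857%), and at least 2-fold below in 9 (0.0929%). The 83 had a median FXR KO ratio of 0.08 and a median WT ratio of 1.83. Of the 66 with at least 20 reads in FXR KO, 13 were at least 2-fold higher there and none lower. Over all such rows 0.770% were higher and 0.539% lower. The 9 had medians of -0.77 in FXR KO and -1.76 in WT, and 1 of the 8 with enough reads was at least 2-fold lower in FXR KO. Across the 9683 rows kept the FXR KO and WT ratios had a Pearson r of 0.06 and a Spearman rho of 0.05, given as a description across genes that share 4 libraries and are not independent.

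Of the 70 rows higher in FXR KO, 21 were also at least 2-fold higher in WT, which is 30.0% of the 70 and 8.17% of the 257. Over all rows 2.69% were higher in WT and 0.770% in FXR KO. In the opposite direction, 5 of the 70 were at least 2-fold lower in WT. Those higher in both included Cyp2b10, Cyp2c29, Cyp3a11, Cyp3a59, Gstm3, Noct, Pdp2, Nr0b2, Osgin1, Thrsp and Gadd45b. Zfp970, a zinc finger gene in a cluster of near copies, had ratios of 1.81 in FXR KO and 1.62 in WT. Fbf1, a centriole protein, had 1.34 and 2.74, and Kcnk5, a potassium channel, 1.14 and 2.90. The median WT ratio of the 70 was 0.31, and 41 were above 0 in WT, or 58.6%, against 36.8% of all rows. Of the 49 rows lower in FXR KO, 5 were at least 2-fold lower in WT as well, which is 10.2% of the 49 and 3.11% of the 161, and 2 of the 49 were higher in WT. Over all rows 1.68% were lower in WT and 0.539% in FXR KO. Whether any ratio differed between genotypes beyond the variation of livers was not tested.

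**Figure D4:**
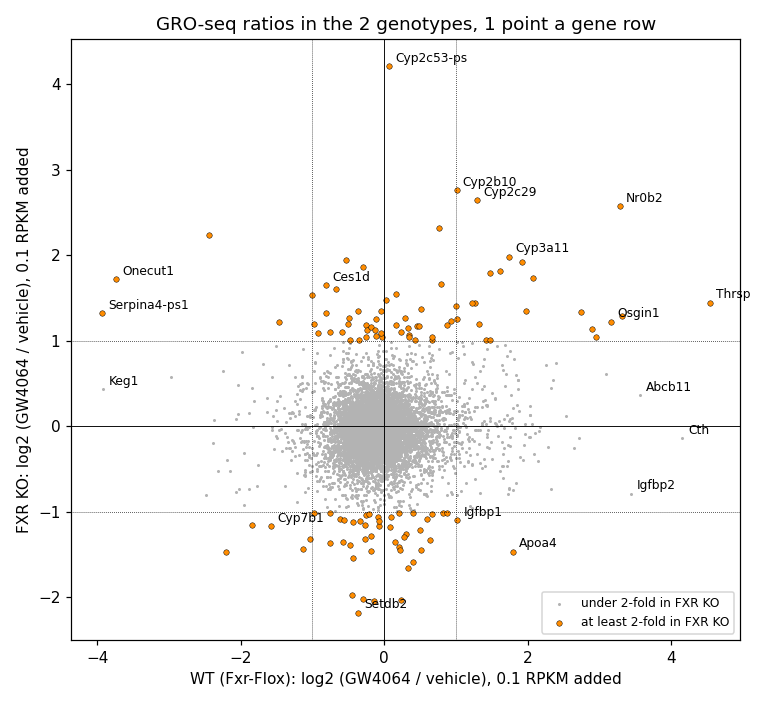
FXR KO ratio (vertical axis) against WT ratio (horizontal axis) of GW4064 to vehicle, log2 with 0.1 RPKM added, 1 point for each row that reached 20 reads in both pairs. Orange points are at least 2-fold apart in FXR KO and dotted lines mark 2-fold. Cyp2b10, Cyp2c29 and Cyp3a11 lie at the upper right, Onecut1 and Serpina4-ps1 at the upper left, and Cth (-0.14 in FXR KO and 4.16 in WT) along the horizontal axis.

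Several genes that were 2-fold apart in FXR KO had a WT ratio near 0. Rbbp8, a DNA end-resection factor, had 166 and 707 reads in FXR KO, a ratio of 1.86 (1.87 to 2.36), and -0.29 in WT. Carmil1, a regulator of actin capping, had 752 and 1846 reads, a ratio of 1.18, and -0.26 in WT. The nuclear receptor gene Nr4a1 had 15 and 48 reads, a ratio of 1.47 (0.84 to 2.64), and 0.02 in WT. Together with Fos, at 7 and 21 reads, and Gadd45b it was 1 of 3 immediate early genes at least 2-fold higher in FXR KO, while Ccn2 and Ier5 were lower. Of 26 kept, 21 had at least 20 reads, and over all such rows 0.770% were higher and 0.539% lower. The surfactant protein gene Sftpa1 had 7 and 33 reads and the acute phase gene Saa1 9 and 22, and both rest on few reads.

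The lowest ratio among named genes was that of Setdb2, a histone methyltransferase-like gene on chromosome 14 (59402009 to 59440880, minus strand). It had 2507 reads in FXR KO vehicle and 531 in FXR KO GW4064, or 12.5 and 2.695 RPKM, a ratio of -2.18 (-2.36 to -2.08). WT had 3.16 and 2.42 RPKM, a ratio of -0.37. Phf11c, downstream on the same strand, had 526 and 123 reads, a ratio of -2.02, and a longer row that covers both, Gm45935, had -2.05. Cab39l, which starts at 59440963 on the opposite strand, had a ratio of -1.15 (-1.35 to -1.08) in FXR KO and -0.27 in WT. The next genes on either side, Rcbtb1 and Cdadc1, had -0.37 and -0.05. FXR KO vehicle held the highest level of Setdb2 among the 4 GRO-seq libraries, and FXR KO GW4064 lay within the WT range.

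Cux2, a homeobox repressor, was higher in both FXR KO libraries than in either WT one. It had 2.32 RPKM in FXR KO vehicle and 0.840 in FXR KO GW4064, a ratio of -1.36 (-1.58 to -1.35), but 0.063 and 0.081 in WT. RNA-seq gave 0.360 and 0.060 RPKM after vehicle and 0.212 and 1.60 after GW4064, so that Cux2 differed widely between libraries of one treatment. Nipal1, a magnesium transporter, had 2.67 and 1.00 RPKM in FXR KO and 0.10 and 0.21 in WT, and Tbc1d30, a Rab GTPase-activating protein, 1.31 and 0.369 against 0.142 and 0.220. For these 3 genes both FXR KO libraries lay above both WT libraries.

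Egfr, the epidermal growth factor receptor, was the best read of the lower genes. It had 15856 and 7709 reads in FXR KO, or 22.8 and 11.2 RPKM, a ratio of -1.01 (-1.06 to -0.98), and -0.75 in WT. Spp2, Rab36, Nodal and Mup9 had ratios between -1.54 and -1.29 in FXR KO and between -0.58 and 0.20 in WT, and Mup9 belongs to a family of near copies. Tmem62, Erdr1, Pnpla7 and Sel1l3 lay between -1.11 and -0.92 in FXR KO. Ccn2, a matricellular growth factor, had 69 and 25 reads, a ratio of -1.39, and -0.47 in WT.

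**Figure D5:**
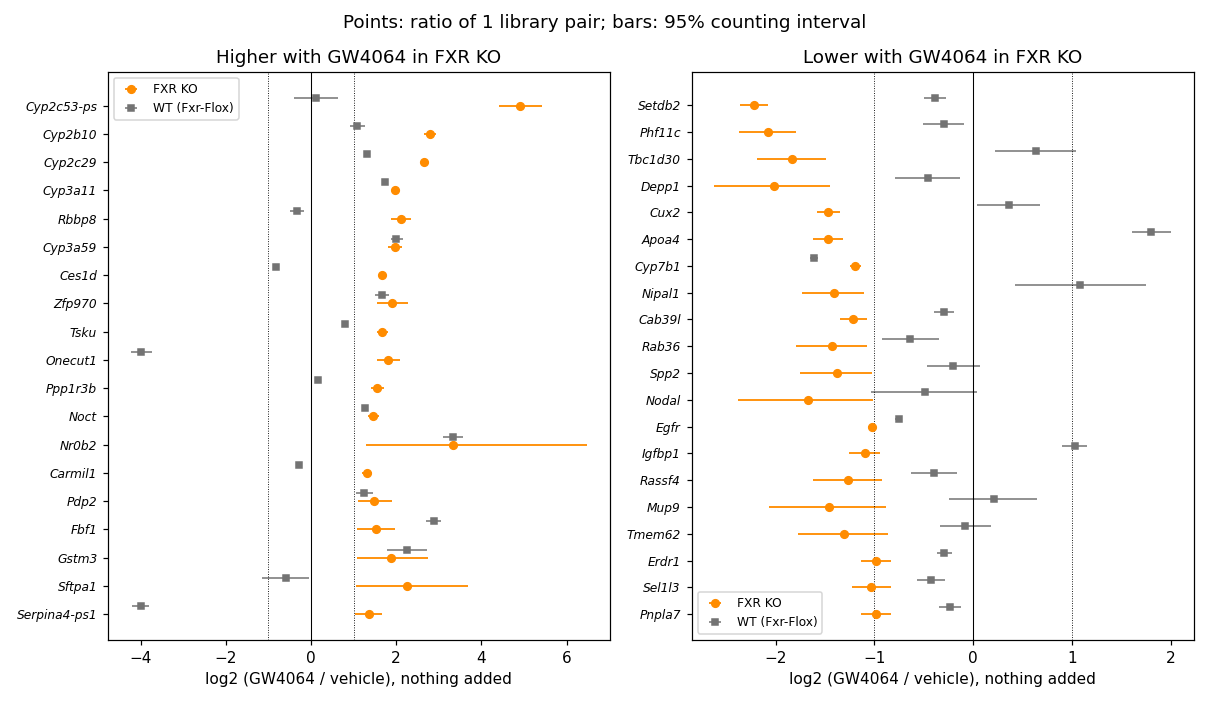
Genes with the highest lower bound (left) and with the lowest upper bound (right) of the FXR KO counting interval, with log2 of GW4064 over vehicle (nothing added) on the horizontal axis and dotted lines at 2-fold. Orange circles are FXR KO and grey squares WT, 1 library pair each, and bars are exact 95% counting intervals. Onecut1 and Serpina4-ps1 on the left, and Apoa4, Igfbp1 and Nipal1 on the right, have WT points at or beyond 2-fold on the opposite side.

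The remaining lists had at most 2 members 2-fold apart in FXR KO. For comparison, 0.770% of all rows with enough reads were higher and 0.539% lower, and 45.3% of the rows kept had a ratio above 0. None of 30 ribosomal protein genes (median 0.02), 21 heat shock and unfolded protein genes (-0.08), 20 cholesterol genes (0.11) or 16 clock genes (0.14) was 2-fold apart with at least 20 reads. Among 31 genes of fatty acid oxidation and PPARalpha only Fgf21 was, and the median was 0.09. The deepest members of these lists included Cyp4a14, a fatty acid hydroxylase, with 0.15 and the chaperone gene Hspa8 with -0.08. Osgin1 and Gstm3 were the 2 higher members among 17 genes of the oxidative stress response, whose median was 0.18, and Saa1 the single one with enough reads among 25 acute phase genes, whose median was 0.06. All 11 kept interferon-stimulated genes had a ratio below 0, from -0.96 to -0.02, with a median of -0.33 in FXR KO and -0.07 in WT, but none reached 2-fold. Their deepest members were Iigp1, at -0.70, and Stat2, at -0.15. Kupffer cell markers summed to 14.7 RPKM after vehicle and 12.6 after GW4064, but 3 of the 8 kept had a ratio above 0 and their median was -0.08. Hepatocyte markers (1245 and 1125 RPKM) and sinusoidal endothelial markers (26.3 and 23.9) also had lower sums after GW4064. Any part of cell types in the interferon ratios was not tested. Periportal hepatocyte markers had a median of -0.20 and pericentral markers of -0.03, and Cyp2e1 and Alb each had -0.03.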

How the data were processed

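GRO-seq and RNA-seq of mouse liver were taken from 1 table of RPKM values that the authors deposited. Per the labels, reads were mapped to mm10 with STAR 2.7.3a and quantified with HOMER. The version of HOMER is not given in the sources used here. Rows span whole genes, introns included, and in 24932 of 25124 rows the length equals end minus start. The strand setting is not given: 58 rows nested in a row of the opposite strand had a median 0.930 of its level in FXR KO vehicle, so strands were taken as not separated. Reads rebuilt from length and RPKM were whole, to a tolerance of 0.15, in 100% of the values examined. All 8 per-sample columns were used.

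Ratios are log2 of GW4064 over vehicle with 0.1 RPKM added. A row counted as 2-fold apart when either library of the pair had 20 reads or more. Intervals are exact (Clopper-Pearson) at 95% and cover counting error only, since reads without molecular identifiers are not independent molecules. With 1 library a group no p-value was computed, and a count test would compare 2 libraries, not 2 conditions.

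Named genes were the 20 with the highest lower bounds and the 20 with the lowest upper bounds of the FXR KO interval, 12 of each in WT, members of 27 lists that were 2-fold apart in FXR KO, the 2 deepest members of each list, and all measured genes of 4 FXR lists. Predicted and small-RNA symbols were left out of the ranked choices. 3 list members were matched through RefSeq synonyms. The members and lists were chosen with earlier results of these data known, and further list members, cluster neighbours and genes shared with WT were named after their values were seen. Some items that these rules name are not reported here. Promoters came from RefSeq (GRCm38.p6). Intervals used scipy 1.17.1, figures matplotlib 3.10.9, and all else Python 3.11.15 with pandas 2.3.3 and numpy 2.4.6. Calls were tested on simulated reads that varied by counting error only, so that check does not cover variation between libraries.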

Additional observations from a re-analysis of the deposited data

Results flagged for a closer look

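For the 6 genes given here the FXR KO and WT ratios were each at least 2-fold and in opposite directions, with both counting intervals off 0. Each genotype has 1 library a treatment, so the difference was not tested. The values are the FXR KO ratio minus the WT ratio, on the log2 scale.

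Higher with GW4064 in FXR KO and lower in WT were Onecut1 (5.46), Serpina4-ps1 (5.25), Hcn3 (2.67) and Gm6402 (2.53). Onecut1, the liver transcription factor HNF6, had 0.975 and 3.44 RPKM in FXR KO and 8.005 and 0.507 in WT. Serpina4-ps1 had 2.56 and 6.54 in FXR KO and 35.4 and 2.22 in WT. In RNA-seq the 2 GW4064 libraries of wild-type liver were themselves apart at these genes, with 2.97 and 15.9 RPKM for Serpina4-ps1 and 0.609 and 1.66 for Onecut1. Gm6402 rests on 8 and 24 reads in FXR KO.

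Lower with GW4064 in FXR KO and higher in WT were Apoa4 (-3.25) and Igfbp1 (-2.12).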

How the results depend on the processing

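No paired analysis was possible because the results come from no test, and no library could be left out because each GRO-seq group has 1. Of 96 values of the 8 main results under 12 alternatives, 79 stayed near the reported value. The FXR KO counts of 70 higher and 49 lower became 27 and 13 with 1 RPKM added, 263 and 315 at 1.5-fold, and 27 and 14 by the counting bound. The lower count became 31 at a mean of 1 RPKM, 82 with no read minimum and 26 with at least 50 reads. The WT counts of 257 and 161 became 140 and 62 with 1 RPKM added and 605 and 691 at 1.5-fold, and 101 were lower by the counting bound. The median FXR KO ratio of genes lower in WT became 0.06 with 1 RPKM added. That of genes lower in RNA-seq became -0.14 with rows of any length and -0.24 at 1.5-fold. Of 324 list medians 8 moved, the furthest by 0.44. None of 53 named genes at least 2-fold apart in FXR KO changed sign, though 26 fell under 2-fold with 1 RPKM added and 1 after centring on the median ratio. Depth limits low rows most, and Nr0b2 in FXR KO rests on 2 and 20 reads.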
